A study of Mus musculus with 6 samples.

Results

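Complement C3, the complement protease gene C1ra and the clusterin gene Clu were examined in bone marrow mesenchymal stem and progenitor cells (MSPCs) from mice that lack Snai2. The 3 genes were chosen by name from the 1285 genes of the authors' deposited table of Snai2-/- against control cells. Every gene in that table has an unadjusted p below 0.05, so these genes were selected on the very contrast described here, and their differences are a description without a test. The 6 libraries comprised 3 from Snai2-/- animals and 3 from control littermates, all adults 8 weeks of age. The protein made from Snai2 is Slug, a repressor of transcription with zinc fingers. Both groups carried the Nes-GFP reporter, a green fluorescent protein driven by nestin sequences, since about 2000 cells per library had been sorted as positive for it and negative for CD45, Ter119 and CD31. Those surface markers label leukocytes, erythroid cells and endothelium. The labels give no further allele, do not say how the Snai2 deletion was made and do not state whether libraries came from separate animals, so part of the spread behind the authors' p may be technical.

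Complement is a cascade of plasma and tissue proteins that tags targets and signals to myeloid cells. The classical pathway starts when C1q binds a target and the proteases C1r and C1s are activated in turn. All routes converge on C3, whose cleavage yields the anaphylatoxin C3a and the opsonin C3b. Clusterin, also called apolipoprotein J, is an extracellular chaperone that binds misfolded proteins and can hold back the terminal membrane attack complex. Liver makes most of the circulating C3, and stromal cells and fibroblasts are known to make complement proteins locally.

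All 3 genes had a lower mean in Snai2-/- than in control MSPCs, C3 by 5.40-fold, C1ra by 1.78-fold and Clu by 1.47-fold according to the authors' deposited table. The ratios of C1ra and Clu lay between the quartiles of all lower genes, 0.395 and 0.681 according to the authors' deposited table, and that of C3 lay below the lower one. No member had a false discovery rate (FDR, a step-up adjusted p) of 0.05 or less according to the authors' deposited table. Each value is the authors' least-squares mean of a group on a normalized scale for which the sources used here give no unit. Values of single libraries were not analysed, so no spread or depth stands beside any mean of 3 libraries, and whether the groups overlap is unknown. In bulk RNA, fewer cells of a type and less RNA per cell cannot be told apart.

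Snai2 itself, which checks the genotype, had a mean of 9.20 in Snai2-/- cells and 636 in control cells according to the authors' deposited table. Of 16718 genes tested, a number recovered from the FDR values, 1285 (7.69%) were listed in the authors' deposited table, 654 (3.91%) with a lower and 631 (3.77%) with a higher mean in Snai2-/- cells. An FDR of at most 0.05 was reached by 0 genes according to the authors' deposited table, and 365 (2.18%) had an unadjusted p below 0.01. None of the 10 bone marrow stroma markers examined, among them Nes, Cxcl12, Lepr and Pdgfrb, was listed. The cell type could therefore not be checked against its markers, because the table gives no level for a gene that is not listed.

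C3 is the central protein of the cascade. Its gene lies on GRCm38 chromosome 17, from 57203970 to 57228136 on the minus strand, and GENCODE's basic set gives it 1 coding transcript of 5.136 kb with 41 exons. C3 had a mean of 232 in Snai2-/- cells and 1254 in control cells according to the authors' deposited table, a ratio of 0.185 and a log2 ratio of -2.43. The Snai2-/- mean was thus 18.5% of the control mean. The unadjusted p of C3 was 0.000201, rank 16 of the 1285, and its FDR was 0.199 according to the authors' deposited table. A difference of at least 2-fold was listed for 590 genes (3.53% of those tested), 237 of them lower (1.42%), according to the authors' deposited table, and C3 was the only one of the 3 members among them. An FDR of at most 0.2 was shared by 17 genes (0.102% of those tested) according to the authors' deposited table, Snai2 among them. No gene of the 17 had a larger FDR than C3, which lay just under the limit, so this count describes its position only.

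Among all 654 lower genes its ratio ranked 58 from the lowest according to the authors' deposited table. With the higher of both group means at 10 or more, it ranked 6 of 450 lower genes according to the authors' deposited table. At 100 or more, C3 ranked 3 of 85 lower genes according to the authors' deposited table. Ahead of it stood Snai2 and Gpr50, a receptor gene with a mean of 16.2 in Snai2-/- cells and 129 in control cells according to the authors' deposited table. At 1000 or more, C3 had the lowest ratio of the 8 lower genes according to the authors' deposited table. These limits were set after the values were seen. For a lower gene the higher group mean is the control mean, so C3 met each limit through its control mean, and the ranks describe which genes were compared and support nothing further.

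C1ra encodes a mouse form of C1r, the protease of the C1 complex that cleaves and activates C1s. The gene lies on GRCm38 chromosome 6, from 124512405 to 124523443 on the plus strand, with 1 coding transcript of 2.981 kb and 11 exons in the same set. C1ra had a mean of 556 in Snai2-/- cells and 990 in control cells according to the authors' deposited table, a ratio of 0.562 and a log2 ratio of -0.83. That ratio was close to the median of the 654 lower genes, 0.572 according to the authors' deposited table. Its unadjusted p was 0.00316, rank 147, and its FDR 0.356 according to the authors' deposited table. An unadjusted p below 0.01 with a lower mean was found for 162 genes (0.969% of those tested) according to the authors' deposited table, C1ra and C3 included.

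The value of C1ra is less certain than the others because the genome holds a close copy. The neighbouring gene C1rb, from 124570294 to 124581171 on the same strand, encodes another C1r. Of the 2932 different stretches of 50 bases in the C1ra transcript, 1490 (50.8%) occur letter for letter in transcripts of C1rb or Gm18840. For C3 the count was 0 of 5087 and for Clu 0 of 1761. The sources used here do not say how reads matching both genes were counted, and C1rb was not listed. The partner genes C1s1 and C1s2, which encode forms of the protease that C1r activates, and the related C1rl lie in the same stretch of chromosome 6 and were not listed either.

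Clu lies on GRCm38 chromosome 14, from 65968483 to 65981547 on the plus strand, with 1 coding transcript of 1.81 kb and 9 exons in the same set. Clu had a mean of 1855 in Snai2-/- cells and 2725 in control cells according to the authors' deposited table, a ratio of 0.681 and a log2 ratio of -0.56. This was the smallest relative difference of the 3 genes. Its ratio ranked 488 from the lowest among the 654 lower genes according to the authors' deposited table. The unadjusted p of Clu was 0.0121, rank 428, and its FDR 0.473 according to the authors' deposited table. With an FDR of at most 0.5 stood 550 genes (3.29% of those tested) according to the authors' deposited table, all 3 members included.

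**Figure D1:**
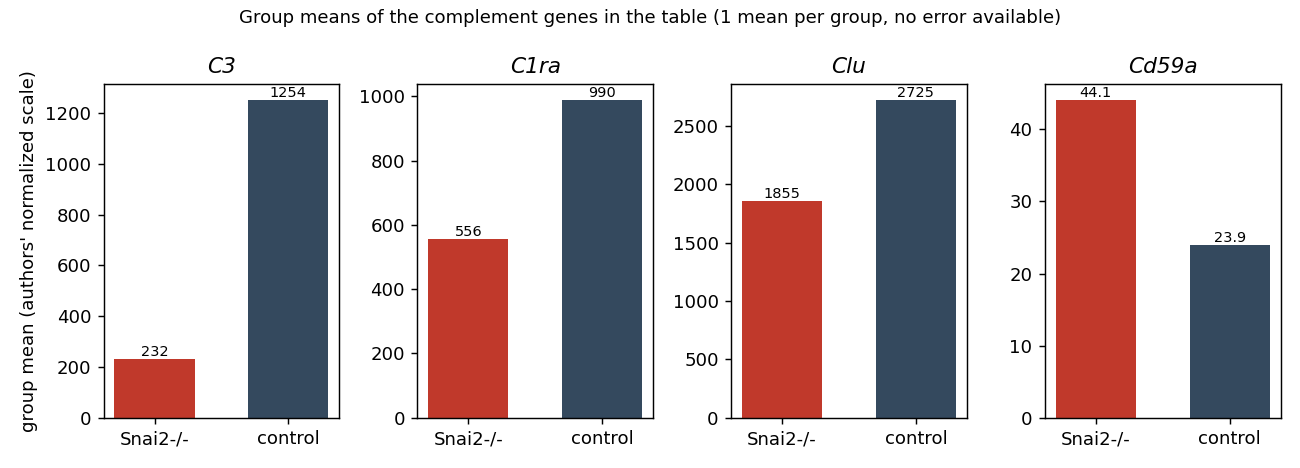
Group means of C3, C1ra, Clu and Cd59a on the authors' normalized scale, each gene with its own axis starting at 0, Snai2-/- bars left of control bars. The Snai2-/- bar is the shorter for C3 (232 against 1254), C1ra (556 against 990) and Clu (1855 against 2725) and the taller for Cd59a (44.1 against 23.9), with 1 mean per group and no error bars.

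**Figure D2:**
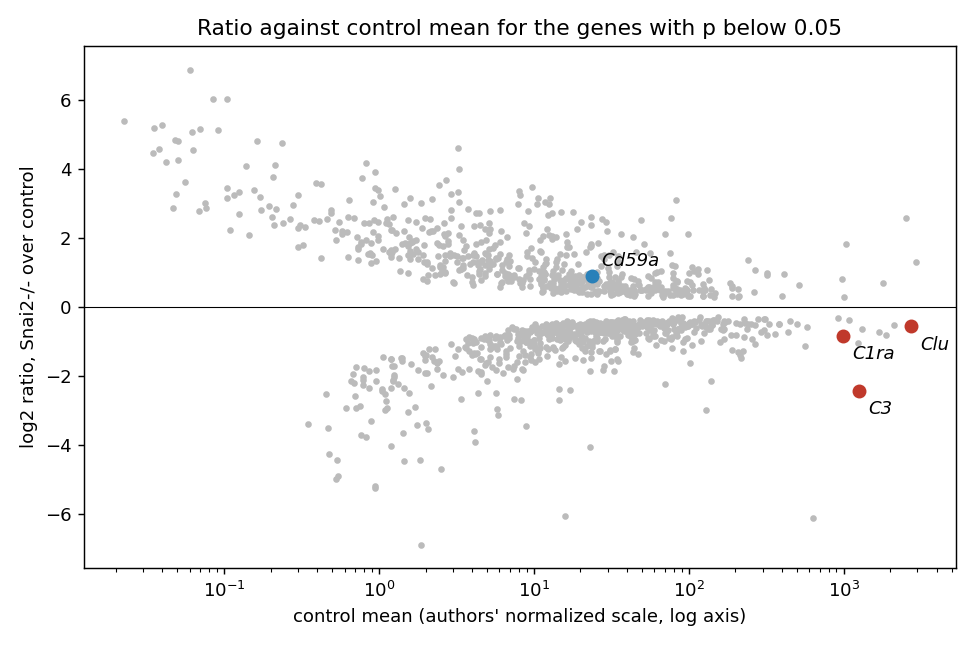
The log2 ratio of Snai2-/- over control (vertical axis) against the control mean on a log axis for 1271 of the 1285 listed genes in grey, with C3, C1ra and Clu in red and Cd59a in blue; 14 genes with a group mean at or below 0.01 are left out. The band around 0 is empty because genes with an unadjusted p of 0.05 or more are absent, and C3 lies at -2.43, below the other genes of similar control mean.

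The scatter of ratios against control means places the 3 members at the abundant end of the table. To compare levels between genes, each mean was divided by the length of the longest coding transcript, which assumes that the authors' scale is not already per length. On this per-kb scale Clu had levels of 1025 in Snai2-/- cells and 1506 in control cells. C1ra had 187 in Snai2-/- and 332 in control cells, and C3 had 45.2 in Snai2-/- and 244 in control cells. Per kb, the order from Clu through C1ra to C3 was the same in both genotypes. On the deposited scale C3 stood above C1ra in control cells (1254 against 990) and below it in Snai2-/- cells (232 against 556). Whether C1ra and C3 differed in control cells beyond their spread cannot be said. Among the 1185 listed genes with such a length, the level per kb ranked 5 in Snai2-/- and 2 in control cells for Clu. C1ra ranked 29 in Snai2-/- and 13 in control cells on the same measure. C3 ranked 137 in Snai2-/- and 21 in control cells, the widest shift of the 3 genes.

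Differences in level depended on the scale. On the deposited scale, the Snai2-/- mean minus the control mean was -1021 for C3, -871 for Clu and -434 for C1ra, which ranked 1, 2 and 9 by size among the 654 lower genes according to the authors' deposited table. Per kb, the Snai2-/- mean minus the control mean was -481 for Clu, -199 for C3 and -146 for C1ra. Per kb, Clu ranked 1, C3 ranked 6 and C1ra ranked 8 by size among the 592 lower genes with a transcript length.

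Promoter sequence was available for C3 and C1ra, and the windows are shown because Slug binds DNA at E-boxes, short sites of which CAGGTG is the form typical for Snail-family factors. Each window runs from 250 bases before to 50 bases after the RefSeq start on GRCm38.p6, written in the direction of the gene. The C3 window is chr17:57228087-57228386 on the minus strand, and the C1ra window is chr6:124512371-124512670 on the plus strand. Capitals mark matches on either strand to CANNTG (any E-box), TATAAA (the TATA box), TTNNGNAAT (a C/EBP site) and TTCNNNGAA (a STAT site).
C3: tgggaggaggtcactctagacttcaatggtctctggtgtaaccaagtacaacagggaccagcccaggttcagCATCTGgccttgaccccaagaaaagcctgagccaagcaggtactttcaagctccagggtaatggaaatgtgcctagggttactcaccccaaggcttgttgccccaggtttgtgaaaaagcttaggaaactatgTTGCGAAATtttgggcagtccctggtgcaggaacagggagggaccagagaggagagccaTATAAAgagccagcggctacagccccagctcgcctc
C1ra: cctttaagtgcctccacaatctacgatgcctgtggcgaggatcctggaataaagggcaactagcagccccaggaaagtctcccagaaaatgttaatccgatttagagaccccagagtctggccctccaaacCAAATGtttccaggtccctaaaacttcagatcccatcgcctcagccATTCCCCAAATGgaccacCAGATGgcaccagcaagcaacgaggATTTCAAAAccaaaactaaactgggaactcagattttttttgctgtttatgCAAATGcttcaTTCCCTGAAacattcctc

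Neither window held CAGGTG on either strand, a sequence present in 20.2% of the 32851 promoter windows of that length. The 1 E-box match of C3 reads CATCTG and begins 178 bases before the start. C1ra had 4 E-box matches. Those reading CAAATG begin 119 and 67 bases before the start and at base 22 after it, and the one reading CAGATG begins 55 bases before it. CANNTG is common, with 72.3% of all windows holding at least 1. The C3 window held TTGCGAAAT, a match to the C/EBP sequence, 45 bases before the start, and TATAAA at base 15 after it. TTNNGNAAT occurred in 11.5% and TATAAA in 13.6% of all windows. C1ra held 2 matches to TTNNGNAAT on the opposite strand, the first overlapping an E-box match, and 1 to TTCNNNGAA, which occurred in 8.30% of windows. Neither window matched the NF-kB sequence searched (4.79% of windows) or the interferon-stimulated response element (3.44% of windows). The C1ra start in RefSeq lies downstream of the start in GENCODE (124512405), so its window overlaps the first exon of the GENCODE transcript. Most of that window and every marked C1ra match lie downstream of the GENCODE start. Little sequence before the GENCODE start of C1ra was therefore searched, for CAGGTG as well. A match describes letters only, and sites outside these windows were not searched.

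Most other complement genes were not in the table, as was true of most genes tested. Of 58 complement genes on 5 lists (activation, terminal pathway, soluble regulators, membrane regulators and receptors), 4 were listed according to the authors' deposited table, 3 lower and 1 higher. That share was 6.90%, beside 7.69% of all genes tested. These lists and those further below count every gene on them, tested or not. Their shares therefore have another base than the 7.69%, and the share among tested list genes is unknown. The median log2 ratio of the 4 was -0.69 according to the authors' deposited table, beside -0.36 over all 1285 listed genes, and 3 of the 4 are the genes chosen at the outset. Without them, 1 of 55 (1.82%) was listed, a share that had to fall because the 3 removed genes were chosen from the listed ones.

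That gene was Cd59a, which encodes a membrane-anchored inhibitor of the membrane attack complex. Cd59a lies on GRCm38 chromosome 2, from 104095801 to 104115354 on the plus strand. It averaged 44.1 in Snai2-/- cells and 23.9 in control cells according to the authors' deposited table. Its ratio was 1.84, its unadjusted p 0.0101 and its FDR 0.458 according to the authors' deposited table. Of the 50-base stretches of its transcript, 3.98% also occur in Cd59b. Clusterin and CD59 both act on the terminal pathway, and the means of their genes differed from control in opposite directions.

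Among 23 activation genes C3 and C1ra were listed. The C1q chains C1qa, C1qb and C1qc, the components C2 and C4b and the alternative pathway genes Cfb, Cfd and Cfp were not. None of the 7 terminal genes, from Hc (which encodes C5) to C9, and none of the 10 receptor genes, C3ar1 and C5ar1 included, was listed. Of 9 soluble regulators Clu was the 1 listed, and Cfi and Serping1 (the C1 inhibitor) were not. None of 9 clusterin receptors and other extracellular chaperones, such as Lrp2, Vldlr and Apoe, was listed. Absence from the list leaves 2 cases, a gene that was not tested and one whose unadjusted p was at least 0.05, and nothing about its level follows.

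**Figure D3:**
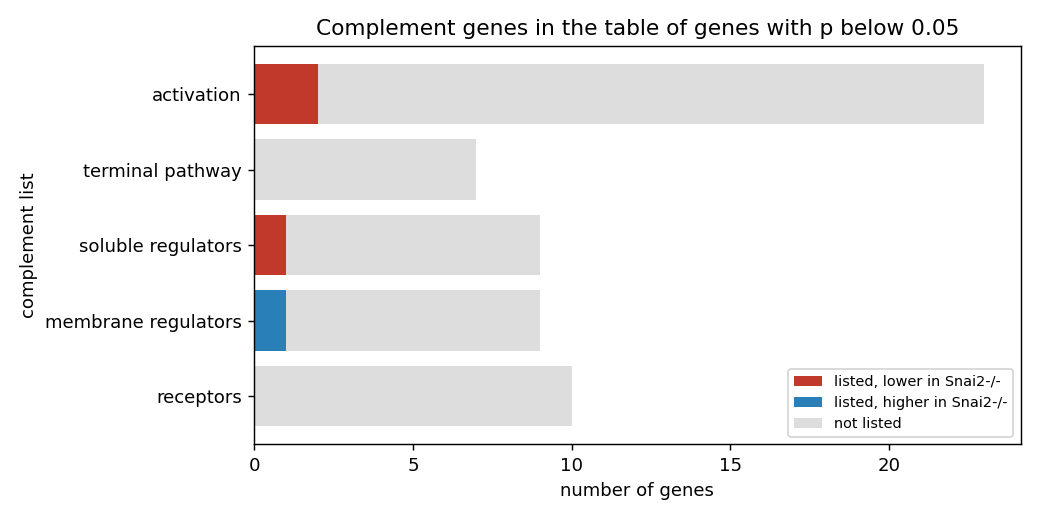
Number of genes on each of 5 complement lists (horizontal axis) that were listed as lower in Snai2-/- cells (red), listed as higher (blue) or not listed (grey). Of 58 genes in all, 3 were listed lower (C3, C1ra and Clu), 1 was listed higher (Cd59a) and 54 were not listed.

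C3 is known as an acute-phase gene that inflammatory cytokines induce, so genes of that response were read from the same table. Of 20 acute-phase and cytokine-signalling genes 3 (15.0%) were listed, all higher in Snai2-/- cells, beside 7.69% listed and 3.77% listed as higher among all genes tested. Il6, the cytokine interleukin-6, had a mean of 13.5 in Snai2-/- cells and 3.50 in control cells according to the authors' deposited table. Lcn2, a siderophore-binding protein that is also a neutrophil granule protein, had means of 46.3 and 8.60 for Snai2-/- and control cells according to the authors' deposited table. Orm1, an acute-phase plasma protein, had means of 7.23 and 3.40 for Snai2-/- and control cells according to the authors' deposited table. The unadjusted p of these 3 genes ran from 0.0108 (Orm1) to 0.0377 (Il6), with 0 below 0.01, according to the authors' deposited table. Their FDR ran from 0.464 to 0.614 according to the authors' deposited table. The serum amyloid genes Saa1, Saa2 and Saa3, and Stat3, Cebpb and Nfkb1, were not listed.

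Markers of other marrow cells were read beside the 3 members, again against 7.69% listed and 3.77% listed as higher among all genes tested. Of 11 neutrophil markers 6 (54.5%) were listed, all higher, with a summed mean of 730 in Snai2-/- cells and 167 in control cells according to the authors' deposited table. They were the granule and antimicrobial protein genes Ngp, Ltf, Camp, Lcn2 and S100a9 and the surface antigen gene Ly6g. Single listed neutrophil markers ranged from 0.931 to 281.5 in Snai2-/- cells and from 0.105 to 75.5 in control cells according to the authors' deposited table. Their unadjusted p ran from 0.0184 to 0.0487, with 0 below 0.01, and their FDR from 0.518 to 0.649 according to the authors' deposited table. Of 9 osteoblast markers 5 (55.6%) were listed, all higher, namely Col1a1, Spp1, Dmp1, Alpl and Ifitm5. They ranged from 96.1 to 15244 in Snai2-/- cells and from 11.8 to 2931 in control cells according to the authors' deposited table. Their summed mean was 23932 in Snai2-/- cells and 5812 in control cells according to the authors' deposited table. Most of that sum came from Col1a1, the main collagen gene of bone, and Spp1. Col1a1 had means of 15244 in Snai2-/- cells and 2546 in control cells according to the authors' deposited table. Spp1, the osteopontin gene, had means of 7257 in Snai2-/- cells and 2931 in control cells according to the authors' deposited table. Across the 5 listed osteoblast markers the unadjusted p ran from 0.00698 (Ifitm5) to 0.0498 (Spp1), with 1 below 0.01, according to the authors' deposited table. The FDR of these 5 ran from 0.404 to 0.650 according to the authors' deposited table.

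The other marker lists had 1 or 2 listed genes each. Of 9 macrophage markers 1 (11.1%) was listed, Adgre1, an adhesion receptor of macrophages, with means of 0.695 in Snai2-/- cells and 0.0560 in control cells according to the authors' deposited table. Of 5 general leukocyte markers 1 (20.0%) was listed, Cd48, with means of 3.64 in Snai2-/- cells and 1.21 in control cells according to the authors' deposited table. Of 7 endothelial markers 2 (28.6%) were listed, Flt4 as higher and Vwf as lower. Flt4 had means of 6.85 in Snai2-/- cells and 3.28 in control cells according to the authors' deposited table. Vwf, the von Willebrand factor gene, had means of 1.38 in Snai2-/- cells and 23.0 in control cells according to the authors' deposited table. Its unadjusted p was 0.0481 and its FDR 0.648 according to the authors' deposited table. Vwf thus had the direction of the 3 members and Flt4 the opposite one. Of 6 erythroid markers 1 (16.7%) was listed, Car1, with means of 137 in Snai2-/- cells and 45.7 in control cells according to the authors' deposited table. Which of the neutrophil, macrophage or leukocyte markers stand at 0 cannot be read from a table of listed genes. The part of these cell types in the lower means of C3, C1ra and Clu was not tested.

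Genes with group means most like those of each member were found by distance in the plane of both log2 means, which rests on 2 group means and not on single libraries. These are the same 2 means that give the ratio, and only 14 listed genes had a higher group mean of at least 1000. A large distance of C3 therefore adds nothing to its ratio and abundance. The listed gene nearest to C3 was Abi3bp, an extracellular matrix gene, at a distance of 1.17 log2 units. Abi3bp had means of 254 in Snai2-/- cells and 561 in control cells according to the authors' deposited table. C1ra itself was next nearest to C3, at 1.31, followed by Lgals3bp, a secreted glycoprotein gene, at 1.33. For C1ra the nearest gene was the collagen VI gene Col6a2, at 0.357, with means of 608 in Snai2-/- cells and 1247 in control cells according to the authors' deposited table. Lamp2, a lysosomal membrane protein, and Calr, the chaperone calreticulin, followed at 0.422 and 0.597. For Clu the nearest was Agt, which encodes angiotensinogen, at 0.502, with means of 1470 in Snai2-/- cells and 2103 in control cells according to the authors' deposited table. The gap junction gene Gja1, at 0.878, was nearer to Clu than Col6a1, at 0.961, but was higher in Snai2-/- cells, with a ratio of 1.61 according to the authors' deposited table.

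**Figure D4:**
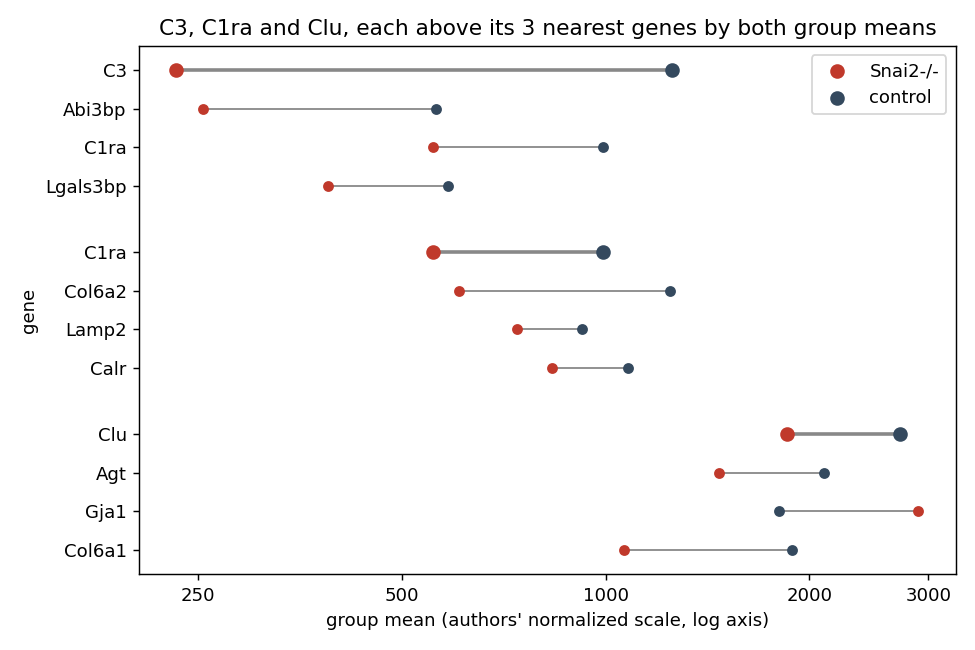
Group means on a log axis for C3, C1ra and Clu (large dots, thick lines), each above the 3 listed genes nearest to it, with Snai2-/- means in red and control means in dark blue. C3 has the longest line, at 232 in Snai2-/- cells against 1254 in control cells, and Gja1 alone has its Snai2-/- mean to the right of its control mean.

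Shares of listed coding neighbours are given over every annotated coding gene near each of the 3 members, tested or not. The 7.69% is over tested genes only, so these shares cannot be read as below it, and no test was made. Within 1 Mb of C3, 2 of 48 coding neighbours (4.17%) were listed, Slc25a23, a mitochondrial carrier, and Adgre1, with ratios of 2.52 and 12.4 according to the authors' deposited table, the second on means below 1. Within 1 Mb of Clu 1 of 23 coding neighbours (4.35%) was listed, the kinase gene Ptk2b, with a ratio of 2.55 according to the authors' deposited table. Within 1 Mb of C1ra 3 of 55 coding neighbours (5.45%) were listed, the phosphatase gene Ptpn6 and the tetraspanin gene Cd9 higher, with ratios of 2.86 and 1.56, and Plekhg6 lower, at 0.411 on low means, according to the authors' deposited table. Gm28809, whose span lies within that of Cd9, was listed in that window too, with a ratio of 0.382 according to the authors' deposited table. Whether reads of Gm28809 and Cd9 can be told apart without strand was not checked.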

How the data were processed

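Bulk RNA-seq of sorted MSPCs was read from a table of the authors' own comparison of mutant with wildtype, taken as Snai2-/- and control since the labels hold no other group. Per the labels' protocols, libraries were made with the SMART-Seq v4 and Nextera XT kits, which do not mark the strand. Trim Galore, HTSeq, edgeR 3.12.0 and mm10 appear in the submitters' processing notes, without roles. The sources used here give no aligner, annotation or model.

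Per the file headers, the table holds an unadjusted p-value, a step-up FDR, a ratio of both means, a signed fold score (the ratio, or minus its reciprocal) and a mean per group. The deposited means and totals are a signal already normalized by the authors, with 0 of 1285 totals a whole number. The depth of each library is unknown, so counting intervals cannot be given.

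No model was fitted and no test was made, because the genes and lists were chosen with earlier results of these data known. Computed here were log2 ratios, ranks, means per kb, list counts, distances and motif matches. The number of tests was recovered as the largest FDR times rank over p, a step checked on simulated data. The text names C3, C1ra, Clu, Snai2, the listed members of the lists and the 3 nearest genes of each member; predicted models, Rik clones and ribosomal genes were left out of the nearest genes. Gpr50 and the genomic neighbours were chosen after their values were seen, as were the 50-base comparison and the limits on abundance. Positions are 1-based from GENCODE M21 (GRCm38, the assembly mm10 denotes), and promoters are from RefSeq, GRCm38.p6, where 2 of the 3 genes matched and Clu had no entry. Python 3.11.15, numpy 2.4.6, pandas 2.3.3 and matplotlib 3.10.9 were used.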

Additional observations from a re-analysis of the deposited data

How the results depend on the processing

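The 3 members kept a lower mean in Snai2-/- cells under both pseudocounts and after centring. With a pseudocount of 10 the log2 ratios were -2.38 for C3, -0.82 for C1ra and -0.55 for Clu, against -2.43, -0.83 and -0.56 without one. A pseudocount of 1 moved none of them at 2 decimals. Relative to the median of all listed genes (-0.36) they were -2.08 for C3, -0.48 for C1ra and -0.20 for Clu, though that median comes from selected genes. The 4 listed complement genes stayed 4 at an FDR of at most 0.5 and at a higher group mean of at least 10. They were 2 at an unadjusted p below 0.01 (C3 and C1ra) and 1 at a difference of at least 2-fold (C3). The rank of C3 by ratio moved from 58 to 6, 3 and 1 at minimum means of 10, 100 and 1000, limits added after seeing the data. No paired analysis was possible because the table gives 1 mean per group. Leaving out replicates, other normalizations and count models were not run for the same reason, so whether 1 library decides a value is unknown.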
